A study of Mus musculus with 14 samples.

Results

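Glutathione S-transferases were followed across 14 mouse livers through 10 genes of 4 classes, the alpha class genes Gsta1, Gsta2, Gsta3 and Gsta4, the mu class genes Gstm1, Gstm2, Gstm3 and Gstm4, the pi class gene Gstp1 and the theta class gene Gstt1. The 10 genes were taken by symbol and hold 16 probes of the 25697 on the beadchip, which names 16593 genes. They were chosen on earlier readings of these same arrays, by their level, spread within a diet, diet difference and covariation across mice, so these measures are given as a description.

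Livers came from male C57Bl/6J mice with no other allele named, kept under specific pathogen free conditions and given isocaloric diets with either sucrose (7 mice) or palatinose (7 mice) as the sugar. By their titles the mice had been fed for 22 weeks, but their labelled age is 18 weeks, and both cannot hold if that is the age at sampling. Sucrose and palatinose (isomaltulose) are both disaccharides of glucose and fructose, joined by different bonds, and palatinose is digested more slowly. Total RNA of each liver was labelled with biotin and hybridised to an Illumina beadchip, on which each probe reports the brightness of its spots, and each array is called by its column name, in which SUC stands for sucrose and PAL for palatinose.

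Glutathione S-transferases join the tripeptide glutathione to reactive, electron-poor compounds, which makes them more soluble and prepares them for export from the hepatocyte. Liver is rich in cytosolic transferases of the alpha, mu and pi classes, which work as dimers within a class. Many of their genes are known targets of NRF2, the transcription factor that answers electrophiles, and of the nuclear receptors CAR and PXR, and in mice several differ in level between the sexes.

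The mean intensity of the arrays ran from 190 to 257, with SUC_424_02 at 257 and the other arrays at or under 215, and 11457 to 12476 probes were detected per array. Pairs of arrays correlated with r from 0.981 to 0.995, and no 2 arrays held identical values. Of 9 hepatocyte markers with a probe, 6 to 7 were detected on every array. The arrays also carried transcripts of other tissues, whose part in the results was not tested beyond leaving arrays out. SUC_421_03 had 12 of 14 small intestine markers detected, with a summed intensity of 4734 against 26 to 51 on the other 13 arrays, and 6 of 10 pancreatic acinar markers. On that array the brush border sucrase-isomaltase gene Sis read 755, where the others read -5 to 2, Vil1 read 173 and Cdx2 read 39, whereas Fabp2 and Cdh17 were not detected on any array. Skeletal muscle markers were detected on SUC_415_02 (11 of 12, with all 10 pancreatic markers), PAL_407_04 (11 of 12), PAL_417_03 (8 of 12) and PAL_429_03 (12 of 12), and 0 or 1 of 12 on the other arrays. In such bulk tissue, fewer cells of a type and less RNA per cell cannot be told apart.

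No transferase differed between the diets at an adjusted p under 0.05 (limma with Benjamini-Hochberg adjustment over 8829 features, of which 0% were called). Of the 10 genes 9 passed the filter on dim probes, and their adjusted p ran from 0.746 to 0.97. At an unadjusted p under 0.05, 7.1% of features but 0 of these 9 genes were found. Palatinose minus sucrose was above 0 for 4 genes and below 0 for 5, against 54.8% of all features above 0, and its median was -0.03 on the log2 scale for the 9 genes and 0.01 for all features. For each of the 9 genes the values of both diets overlapped, and the share of all features that did so was not counted.

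Gsta1, an alpha class enzyme that is low in unstimulated mouse liver, was the most variable of the transferases. Its log2 intensity in sucrose livers was 5.37 at the lowest, 5.76 at the median and 9.99 at the highest, and in palatinose livers 4.80, 5.69 and 8.27. The highest value was that of SUC_421_03, followed by PAL_430_01 at 8.27 and PAL_430_04 at 8.03, while the other 11 arrays lay at or under 7.20. As deposited intensities, the same probe read 895 on SUC_421_03, 286 and 252 on the PAL_430 arrays, and 12 to 167 on the rest. Gsta1 averaged 6.65 ± 1.64 (SD, n = 7) on sucrose and 6.16 ± 1.45 on palatinose, a difference of -0.49 with a 95% interval from -1.98 to 1.00. Without SUC_421_03, the array with small intestine transcripts, the difference was 0.07 (-1.13 to 1.26), so its direction rested on that array. Without both PAL_430 arrays, the highest on palatinose, it was -1.29 (-2.66 to 0.08). The offset of 16 that the log2 scale carries understates the changes of dim probes such as this one.

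Gsta2, the closest relative of Gsta1 among the 10 genes, showed the same ordering of arrays at the top. Its log2 intensity was 6.37, 6.85 and 8.70 (lowest, median and highest) on sucrose and 5.49, 6.46 and 8.52 on palatinose. SUC_421_03 was again the highest sucrose array, and PAL_430_01 and PAL_430_04 were the highest palatinose arrays. The means were 7.09 ± 0.78 and 6.72 ± 1.12, which gave a difference of -0.38 (-1.31 to 0.56). It was -0.11 without SUC_421_03, and -0.97 (-1.70 to -0.25) with an adjusted p of 0.796 without both PAL_430 arrays.

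Across the 14 arrays, with the diet means removed, Gsta1 and Gsta2 correlated with r of 0.96, and with 0.96 again without SUC_421_03. Probe sequences were not used here, so how far the probes of such similar genes also bind each other's transcript cannot be told apart from joint change. Gsta1 (chr9:78230669-78242683) and Gsta2 (chr9:78331018-78347192) lie on the same chromosome in GRCm38.p6, with Gsta4 (chr9:78191966-78209349) beside them, while Gsta3 (chr1:21240565-21265575) lies on another chromosome. The bases before the start of Gsta1 and Gsta2, from RefSeq promoter windows on GRCm38.p6, are shown because these genes moved together, with capitals for the longest run that both share, and Gsta3 is shown for comparison as the alpha gene on another chromosome, with capitals for the only antioxidant response element core found among the members. Bases that lie inside the annotated span of the gene were left out at the end nearest the start site, 47 for Gsta2 and 20 for Gsta3.
Gsta1 (chr9:78230419-78230668, plus strand): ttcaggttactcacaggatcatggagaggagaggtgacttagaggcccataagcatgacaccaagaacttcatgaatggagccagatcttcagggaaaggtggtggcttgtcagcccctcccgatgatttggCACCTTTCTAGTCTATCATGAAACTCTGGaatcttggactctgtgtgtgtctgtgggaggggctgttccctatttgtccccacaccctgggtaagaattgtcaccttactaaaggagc
Gsta2 (chr9:78347193-78347395, minus strand): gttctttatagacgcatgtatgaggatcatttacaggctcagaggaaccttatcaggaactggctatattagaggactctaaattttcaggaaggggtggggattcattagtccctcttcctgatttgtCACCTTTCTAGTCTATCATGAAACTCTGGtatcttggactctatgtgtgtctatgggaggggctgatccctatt
Gsta3 (chr1:21240335-21240564, plus strand): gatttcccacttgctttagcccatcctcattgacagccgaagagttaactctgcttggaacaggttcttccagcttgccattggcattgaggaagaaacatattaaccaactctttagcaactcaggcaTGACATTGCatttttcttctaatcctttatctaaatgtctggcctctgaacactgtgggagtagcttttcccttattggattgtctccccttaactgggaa

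The run shared by Gsta1 and Gsta2 is 29 bases long and begins 118 bases before the start site in Gsta1 and 121 bases before it in Gsta2, counted with the bases left out. Aligned over 300 bases (250 before to 50 after the start), the windows of these genes were 75.3% identical, against at most 54.9% for any other pair among the 9 members with a window. The core of the antioxidant response element, the DNA motif through which NRF2 acts, was searched as TGACNNNGC on both strands. It was found in 12.4% of 32851 windows of that length, and in 1 of the 11 windows of the members, that of Gsta3 at 121 bases before the start, counted likewise. The match is a description of letters in that window, and no factor was measured here. Gsta4 had no window in the tables used.

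Gsta3, the abundant alpha class transferase of mouse liver, varied little by its brightest probe. Its log2 intensity was 12.86, 13.16 and 13.62 on sucrose and 12.96, 13.10 and 13.23 on palatinose, with the highest value on SUC_424_02, the array of highest mean intensity. The diets overlapped, and their difference was -0.09 (-0.30 to 0.12), or -0.01 without SUC_424_02. Another Gsta3 probe gave a difference of -0.20 (-0.71 to 0.31) and followed the first with r of 0.968. This dimmer probe varied more, with deposited intensities of 178 to 1089 on sucrose and 227 to 358 on palatinose. The brightest probe read 7223 to 15940 and 7780 to 9196.

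Gsta4, which conjugates 4-hydroxynonenal and other products of lipid peroxidation, had log2 intensities of 7.62, 7.71 and 8.12 on sucrose and 7.17, 7.80 and 8.55 on palatinose. The palatinose livers lay both below and above the sucrose livers, with PAL_430_01 at the top and the muscle-bearing PAL_429_03 at the bottom. Their SD was 0.49 against 0.18 on sucrose. The means of 7.74 and 7.77 differed by -0.03 (-0.40 to 0.34).

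Gstm1, a major mu class enzyme of mouse liver, read 11.18, 11.27 and 11.82 on the log2 scale on sucrose and 11.01, 11.73 and 12.32 on palatinose. PAL_430_01 at 12.32 and PAL_430_04 at 12.11 exceeded every other array, while PAL_407_04 and PAL_429_03 were below every sucrose array. The difference was 0.19 (-0.22 to 0.59), and -0.06 without both PAL_430 arrays. A second Gstm1 probe was detected at p under 0.05 on only 5 of 14 arrays and was not tested.

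Gstm2, the neighbour of Gstm1 on chromosome 3, had log2 intensities of 10.33, 10.76 and 11.37 on sucrose and 10.20, 11.00 and 11.28 on palatinose. The groups overlapped almost wholly, with a difference of 0.04 (-0.36 to 0.44). The other Gstm2 probes gave 0.02 and 0.14, and each followed the first with r of 0.985.

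Gstm3 was not measurable in these livers. Its probe read -1 to 2 on sucrose and -4 to 13 on palatinose, and was detected at p under 0.05 only on PAL_430_04, so it was not tested and has no fold. The nearest lower value, 7, was that of PAL_430_01.

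Gstm4 read 7.70, 7.94 and 8.22 on the log2 scale on sucrose and 7.29, 8.05 and 8.33 on palatinose. PAL_407_04 was the lowest array by a wide margin, and the difference was 0.06 (-0.23 to 0.34). The mu class genes are similar in sequence and lie together on chromosome 3, from 107963696 (the start of Gstm3) to 108045179 (the end of Gstm4) in GRCm38.p6, so signal of one gene on the probe of another cannot be told apart here.

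Gstp1 (chr19:4035411-4037912), the pi class gene that male mouse liver holds at a high level, read 12.09, 12.55 and 13.00 on the log2 scale on sucrose and 12.05, 12.39 and 12.68 on palatinose. It averaged 12.58 ± 0.33 on sucrose and 12.37 ± 0.22 on palatinose, and 1 of 7 palatinose livers lay above the sucrose mean. The difference was -0.21 (-0.50 to 0.08). A second probe gave -0.12 and followed the first with r of 0.902, whereas another, dimmer probe gave -0.08 and correlated with it at r of 0.448.

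Gstt1 (chr10:75783813-75798584), a theta class enzyme that acts on small halogenated compounds, had log2 intensities of 10.48, 10.61 and 11.01 on sucrose and 10.60, 10.83 and 11.20 on palatinose. It had the smallest adjusted p of the members, 0.746, at a difference of 0.18 (-0.06 to 0.42), and 5 of 7 palatinose livers lay above the sucrose mean.

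**Figure D1:**
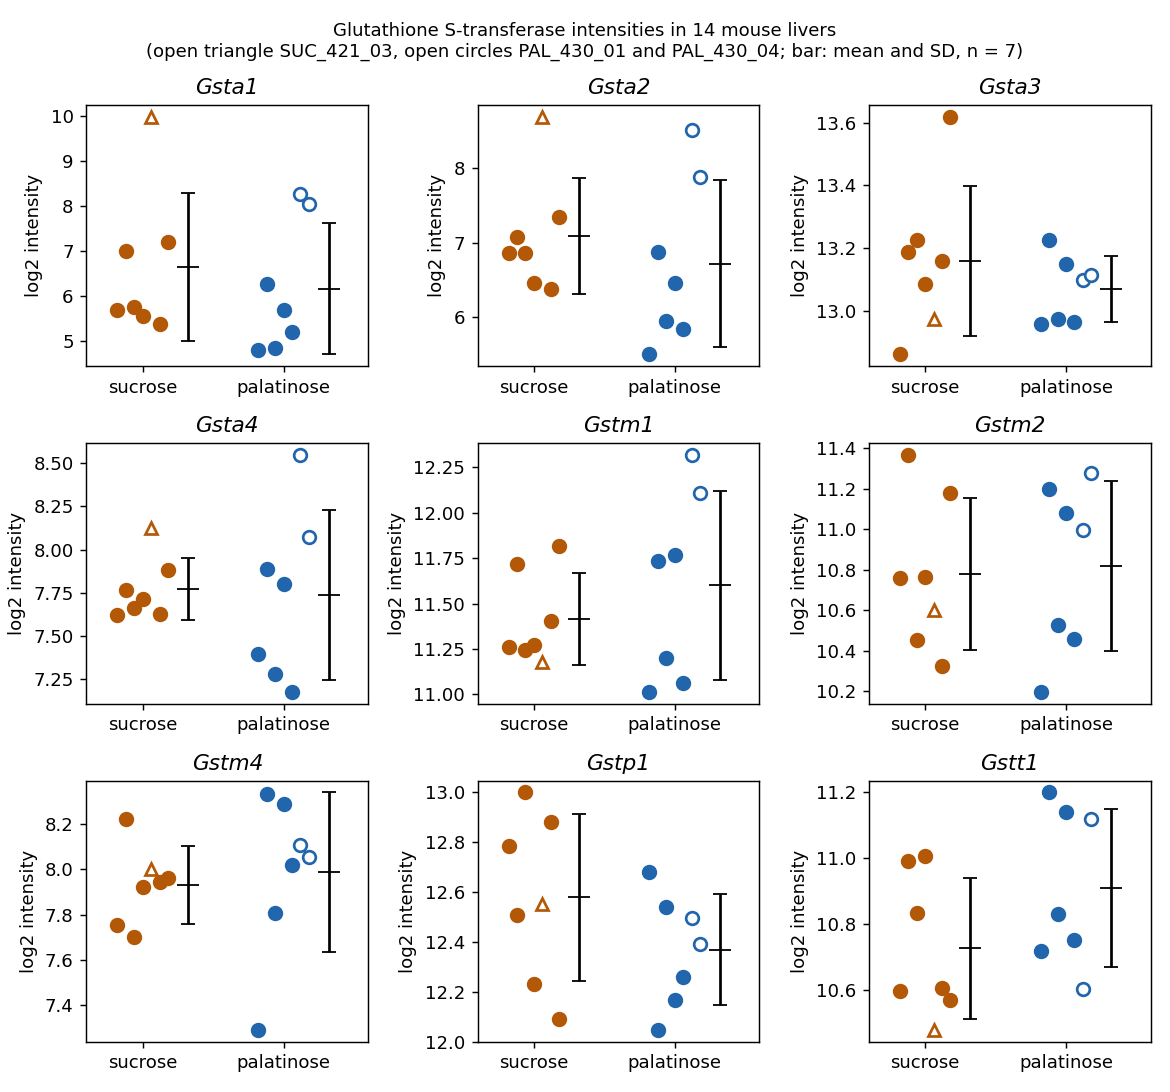
Log2 intensity (vertical axes, a separate scale in each panel) of the 9 measured transferases in sucrose and palatinose livers, 1 point per array, with the mean and SD of 7 arrays beside each diet and open symbols for the 3 arrays highest in Gsta1. The open symbols stand at the top for Gsta1, Gsta2 and Gsta4, and the diets overlap in every panel.

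Leaving out the 5 arrays with transcripts of muscle, pancreas or intestine, a choice made after the data were seen, left 5 sucrose and 4 palatinose livers. On these the difference was 0.91 (-0.31 to 2.13) for Gsta1, 0.62 for Gsta2, 0.36 (0.04 to 0.67) for Gsta4, 0.49 (0.14 to 0.84) for Gstm1, 0.25 for Gstm2 and 0.24 for Gstm4. The smallest adjusted p of the members was then 0.376, so that none was called. Of the 4 palatinose livers left, 2 were the PAL_430 arrays.

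**Figure D2:**
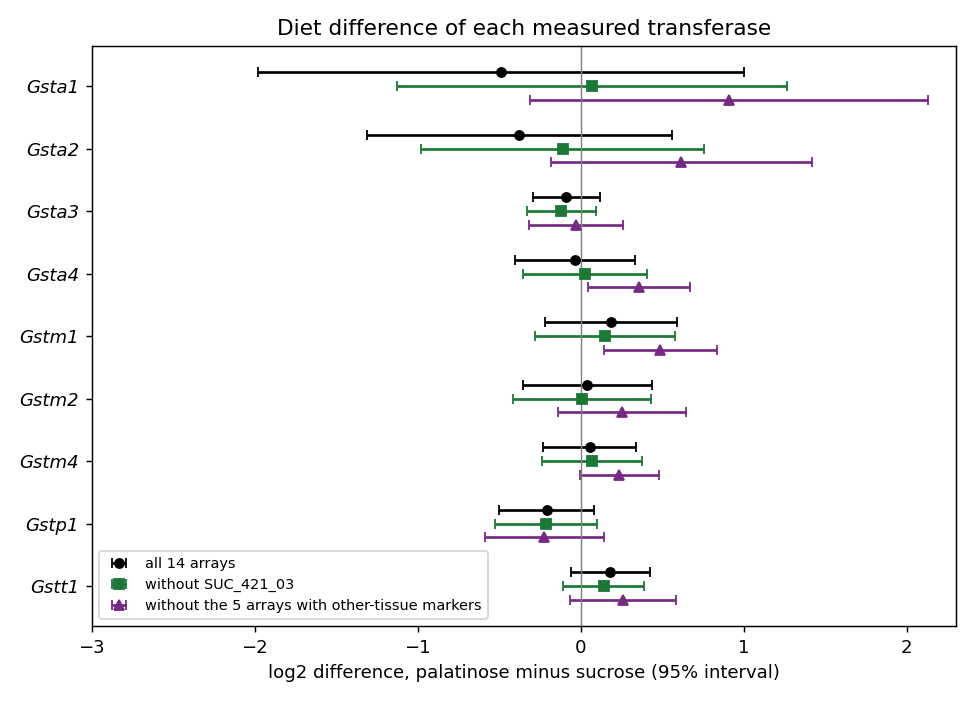
Difference in log2 intensity, palatinose minus sucrose, with its 95% interval for 9 transferases (horizontal axis) from all 14 arrays, without SUC_421_03 and without the 5 arrays with other-tissue markers. The Gsta1 estimate moves from -0.49 to 0.07 and 0.91, and those of Gsta2 and Gsta4 also change sign. Those of Gsta3, Gstm1, Gstm2, Gstm4, Gstp1 and Gstt1 keep their sign in the settings drawn.

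Pooled over both diets, the SD within a diet was above the median of all features for each measured transferase. The SDs in this paragraph are pooled in that way. In single diets, Gsta4 and Gstm4 on sucrose (0.180 and 0.172) lay below the sucrose median of 0.187. Gsta3 on palatinose (0.105) lay below the palatinose median of 0.160, and the other members were above the median in each diet. The median SD within a diet was 0.183 on the log2 scale over all features, and 5 of the 9 members had an SD above that of at least 90% of features. Gsta1 had an SD of 1.55, which was 8.49 times that median, and only 3 features had a larger one. From the lowest to the highest array, Gsta1 spanned 36.4-fold and Gsta2 9.22-fold. Without SUC_421_03, which was the highest array for both, the SD of Gsta1 was 1.20, or 6.64 times the median, with 10 features above it, and Gsta1 spanned 11.1-fold and Gsta2 8.14-fold. On the 9 arrays without other-tissue markers the SD of Gsta1 was 5.80 times the median and that of Gsta2 3.76 times, while that of Gstm4 was below the median, at 0.845 times. Gsta4, Gstm1 and Gstm2 stood there at 1.27, 1.46 and 1.74 times, with 2450, 1627 and 887 of 8829 features above them. Their place among the 5 members above 90% of features thus depended on the arrays kept. By its brightest probe Gsta3 spanned 1.69-fold, with an SD of 0.185 that was close to the median of all features, while its dimmer probe varied more.

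As a class level, the mean of the centred log2 values differed by -0.25, palatinose minus sucrose, for the alpha members (-0.03 without SUC_421_03) and by 0.09 for the mu members (0.08). Alpha minus mu was 0.17 ± 0.64 on sucrose and -0.17 ± 0.49 on palatinose, with values from -0.24 to 1.56 and from -0.56 to 0.68. The difference of -0.34 was less than the SD of either diet, and it was -0.11 without SUC_421_03, which held the value of 1.56. On PAL_430_01 and PAL_430_04 both class levels were high, at 1.07 and 0.73 for alpha and 0.39 on each array for mu. On SUC_421_03, by contrast, alpha was at 1.40 and mu at -0.16. The members were not scaled, so Gsta1 and Gsta2, with SDs of 1.55 and 0.97, weigh most in the alpha level. Gsta3, with an SD of 0.185, read 13.10 and 13.12 on the PAL_430 arrays. Its means were 13.16 on sucrose and 13.07 on palatinose.

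How far members of a class varied together from mouse to mouse depended on the arrays kept. Over 14 arrays with diet means removed, the median r of the 36 pairs was 0.431. Gsta4 correlated with Gsta1 at r of 0.82 and with Gsta2 at 0.91, while Gsta3 correlated with Gsta1, Gsta2 and Gsta4 at 0.13, 0.15 and 0.28. Without SUC_421_03 these values of Gsta3 were 0.49, 0.39 and 0.42. On the 9 arrays without other-tissue markers, which also leave out SUC_421_03, they were 0.34, 0.15 and 0.19. Within the sucrose livers they were -0.02, -0.07 and 0.10, and within the palatinose livers 0.54, 0.58 and 0.67. With Gstm1 and Gstm2, Gsta3 correlated at 0.57 and 0.52. Within the mu class, r was 0.81 for Gstm1 with Gstm2, 0.74 for Gstm2 with Gstm4 and 0.61 for Gstm1 with Gstm4, which was 0.06 on the 9 arrays without other-tissue markers. All 12 pairs of an alpha with a mu gene were above 0, with a median of 0.516, which was 0.197 within sucrose and 0.754 within palatinose. On the 9 arrays 9 of these 12 pairs were above 0, and Gstm4 was at -0.10 with Gsta1, -0.32 with Gsta2 and -0.23 with Gsta4. Gstp1 correlated below 0 with each of the 8 other members, from -0.14 with Gsta2 to -0.62 with Gstm2. On the 9 arrays without other-tissue markers 5 of these 8 pairs were below 0, and Gstp1 was at 0.01 with Gsta1, 0.18 with Gsta2 and 0.11 with Gsta4. All these pairs share the same 14 arrays, and so the depth and tissue content of each array.

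For Gsta1 and Gsta4 with Gstm1, the size of the link between the classes depended on the arrays kept. Over all 12 pairs of an alpha with a mu gene, the median r moved less. It was 0.516 on all arrays, 0.598 without SUC_421_03 and 0.452 without both PAL_430 arrays. Gsta1 with Gstm1 gave r of 0.56 on all arrays, 0.93 without SUC_421_03 and 0.20 without both PAL_430 arrays. It was 0.86 without these 3 arrays. Within the sucrose livers it was 0.01 and within the palatinose livers 0.94. Gsta4 with Gstm1 gave 0.82, with 0.93 without SUC_421_03, 0.60 without both PAL_430 arrays, 0.04 within sucrose and 0.96 within palatinose. By contrast, Gsta1 with Gsta2 stayed between 0.88 and 0.96 over 24 alternatives.

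**Figure D3:**
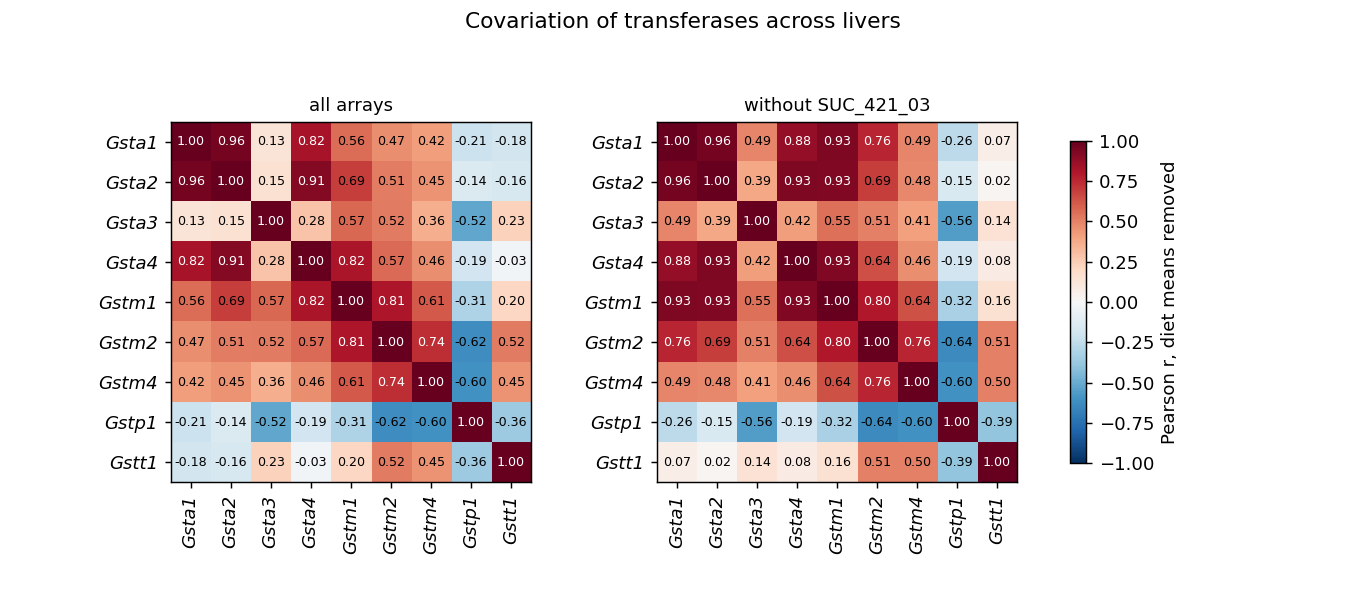
Pearson r between each pair of 9 transferases (colour scale from -1 to 1) after the diet means were removed, over 14 arrays and over the 13 arrays without SUC_421_03. Gstm1 with Gsta1 is at 0.56 on the left and 0.93 on the right, and Gstp1 stays below 0 with all others.

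**Figure D4:**
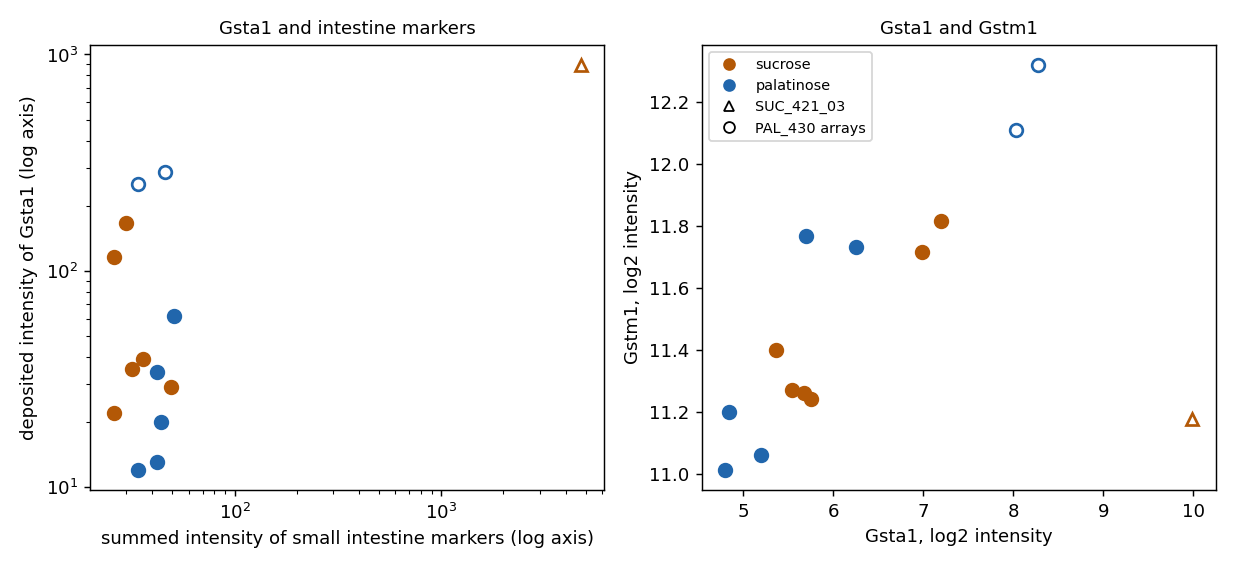
Deposited intensity of Gsta1 against the summed intensity of 14 small intestine markers (left, both axes logarithmic) and log2 intensity of Gstm1 against Gsta1 (right), 1 point per array. SUC_421_03 stands alone at a summed marker intensity of 4734, and the PAL_430 arrays hold high Gsta1 at summed marker intensities of 34 and 46.

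On the PAL_430 arrays 0 and 1 of 14 intestine markers were detected. Their muscle markers were detected at 1 of 12 each and their pancreatic markers at 1 of 10 each. Among cells of the liver other than hepatocytes, the summed intensity of 6 cholangiocyte markers was 423 on PAL_430_01 and 392 on PAL_430_04, against 179 to 400 on the other arrays. The 5 macrophage markers summed to 1861 and 1010, against 576 to 1568, and the 9 stellate cell and fibroblast markers to 4755 and 5873, against 3486 to 7526. The 8 endothelial markers summed to 2321 and 2000, against 2056 to 3342. The part of these cells in the transferase levels was not tested.

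The features most like the alpha class, by r to the mean of the alpha members over 14 arrays, were Sdcbp2 (0.96), Cd63 (0.92), Fblim1 (0.92), Anxa2 (0.91) and Mrpl54 (0.88). The members were not scaled for this mean, so Gsta1 and Gsta2 weigh most in it and Gsta3 least. Sdcbp2 encodes a syntenin, Cd63 a tetraspanin of late endosomes, Fblim1 a filamin-binding adaptor, Anxa2 a calcium-dependent membrane-binding protein and Mrpl54 a mitochondrial ribosomal protein. Most like the mu class were Gal3st1 (0.93), Copz2 (0.93), Lgals1 (0.91), a probe without a gene name (ILMN_1221257, 0.91) and Bloc1s5 (0.91). Gal3st1 encodes the sulfotransferase that makes sulfatide, Copz2 a subunit of the coat of Golgi vesicles, Lgals1 galectin-1 and Bloc1s5 a subunit of a complex in the biogenesis of lysosome-related organelles. Without SUC_421_03 these 10 values of r ran from 0.89 to 0.94.

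Each of the 9 measured members was set against 61 genes of 5 lists, which gave 549 relations with diet means removed. None passed Benjamini-Hochberg adjustment (smallest adjusted permutation p of 0.0769 for Pearson's r and 0.0901 for Spearman's rho), while 87 had an unadjusted p under 0.05. The members and lists were chosen with earlier results of these data known, so these p-values are given as a description. The smallest p belonged to Gstm1 with Cyp7b1, the male-biased oxysterol 7-alpha-hydroxylase of bile acid synthesis. For that pair r was -0.91 and rho -0.87 (two-sided permutation p of 0.00014 and 0.00113, adjusted 0.0769 and 0.0901). It was -0.79 within sucrose, -0.93 within palatinose, and -0.79 without the 2 arrays farthest in Gstm1, which were the PAL_430 arrays. Gstm1 with Hsd3b5, a steroid reductase of male mouse liver, gave r of -0.85 (rho -0.83), and -0.74 without those arrays.

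**Figure D5:**
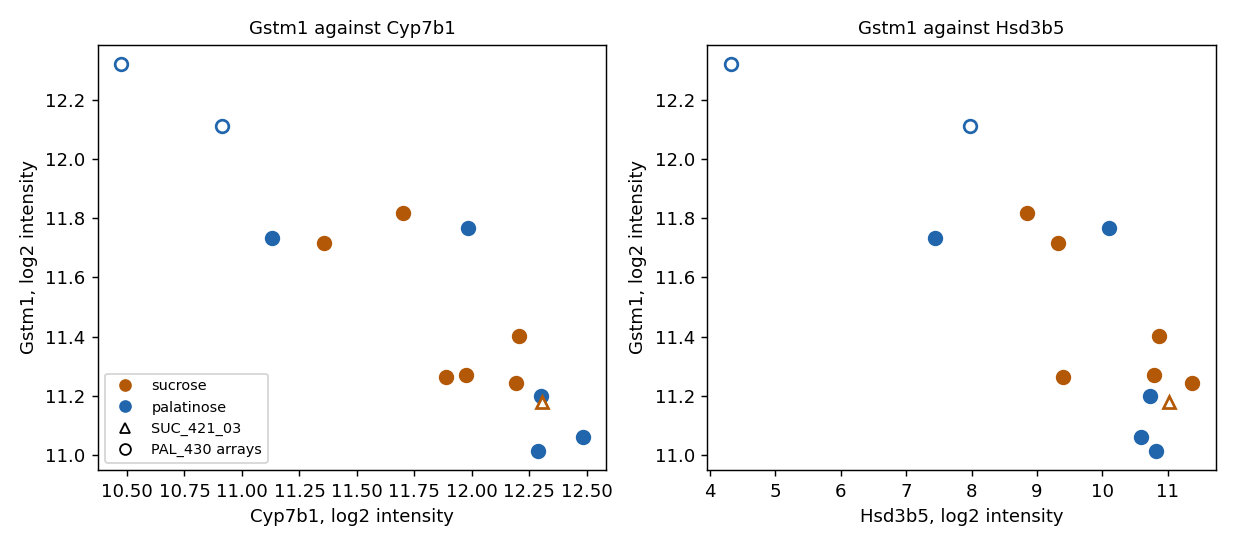
Log2 intensity of Gstm1 against that of Cyp7b1 (left) and Hsd3b5 (right), 1 point per array coloured by diet. The points run from low Gstm1 with high levels of both male-biased genes to high Gstm1 with low levels, and PAL_430_01, highest in Gstm1 at 12.32, was lowest in Cyp7b1 at 10.47 and in Hsd3b5 at 4.32.

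The other 5 of the 7 relations of lowest p joined Gsta3 with the complement gene C6 (r of -0.58, rho of -0.76), Gstm1 and Gsta3 with Fth1, the heavy chain of the iron store ferritin (r of 0.75 and 0.77), Gstm2 with its neighbour Gstm6 (0.84) and Gstm1 with Cyp3a11, a PXR target of drug oxidation (0.81). All 9 male-biased genes measured correlated below 0 with Gsta1, Gsta2, Gsta4, Gstm1, Gstm2 and Gstm4 alike, with medians from -0.28 for Gsta1 to -0.56 for Gstm1. For Gstp1, itself higher in male than in female mouse liver, 7 of these 9 correlated above 0, with a median of 0.11 and values from -0.26 to 0.60. Gsta3 had 2 above 0 and 7 below (median -0.12), and Gstt1 had 4 above and 5 below (median -0.10). These counts describe 14 livers and were not tested as counts.

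The genes around the transferases also showed no called diet difference. Of 15 other glutathione transferases, 11 were tested, 5 higher and 6 lower on palatinose and none called, with a median difference of -0.03. Those of smallest p were Gstm5 (0.16), Gstt2 (0.11), Gstp2 (-0.11) and the microsomal Mgst3 (0.18).

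Among genes that make, recycle or clear glutathione, 14 of 24 were tested, 8 higher and 6 lower, with none called and a median of 0.02. At unadjusted p under 0.05 there were 4 of 14, against 7.1% of all features. They were Ggt6, a gamma-glutamyl transferase family member (0.29, 0.07 to 0.51), Gpx4, the peroxidase of lipid hydroperoxides (0.24, 0.04 to 0.43), Gss, glutathione synthetase (0.28, 0.03 to 0.52), and Cndp2, a dipeptidase that cleaves cysteinylglycine (0.20, 0.02 to 0.38). The smallest adjusted p in the list was 0.678. Gclc and Gclm, the subunits of the rate-limiting ligase, differed by -0.04 (-0.36 to 0.28) and -0.09 (-0.26 to 0.09).

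Of 21 genes of NRF2 and its other targets, 17 were tested, 11 higher and 6 lower with none called and a median of 0.04. Those of smallest p were the aldehyde oxidase Aox1 (-0.13), the pentose phosphate enzyme Taldo1 (0.17), the carbonyl reductase Cbr3 (0.21) and the sulfiredoxin Srxn1 (0.15). Nqo1, the quinone reductase most often read as an NRF2 target, differed by -0.12 (-0.34 to 0.09).

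Of 18 genes of CAR, PXR and their targets, 10 were tested, 2 higher and 8 lower with none called, and a median of -0.09. Cyp2c29 was at -0.41 (-0.77 to -0.04) with an adjusted p of 0.681, Alas1, the first enzyme of heme synthesis, at -0.27, Cyp3a13 at -0.15 and Cyp2c37 at -0.19.

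All 9 tested genes of 12 male-biased liver genes had estimates below 0 on palatinose, where 45.2% of all features did, and none was called. Their median was -0.24, and the smallest p were those of the complement gene C6 (-0.29), Cyp4a12b (-0.48), Hsd3b5 (-1.38, -3.16 to 0.41) and Cyp4a12a (-0.24). The smallest adjusted p in this list was 0.706. All 9 estimates come from the same livers, so they are not separate. The PAL_430 arrays were the lowest of all in Cyp7b1, at 10.47 and 10.91, against 11.36 at the lowest on sucrose. In Hsd3b5 they read 4.32 and 7.97, against 8.84 at the lowest on sucrose. How far the estimates of this list rest on these arrays was not tested.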

How the data were processed

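Liver RNA of 14 mice was measured on 1-colour beadchips. The main values were the non-normalized intensity per probe as the authors deposited it, background-subtracted by the look of its negative values (23.0 to 26.4% of probes per array), with a detection p-value per probe in the same deposited table. A second table of the authors' normalized intensity values, with a median of 21 in every column and a method not given in the sources used here, served as an alternative. Column names gave the diet but not the replicate number. With nothing said on separate cages or litters, p-values measure the spread between these 14 mice, whose number limits the precision.

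Intensities were background-corrected from the detection p-values, given an offset of 16, quantile-normalized and put on the log2 scale (neqc in limma 3.58.1, R 4.3.3). Probes with detection p under 0.05 on at least 7 of 14 arrays were kept (11628 of 25697), and the brightest probe stood for each gene, which gave 8829 features. Gene names came from the platform annotation, with 1 symbol for 23978 probes and none for 1719. Diets were compared with lmFit and eBayes, palatinose minus sucrose, with Benjamini-Hochberg adjustment over all features. Markers counted as detected at p under 0.01, and an array as holding another tissue from 5 detected markers of muscle, pancreas or intestine. Relations between genes were tested by 100000 permutations within diet. The statistics were first tested on simulated data. Promoters came from RefSeq tables, aligned with Biopython 1.88, and figures were drawn with matplotlib 3.10.9.

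The 10 members, the 5 lists and the marker lists were chosen with earlier results of these data known, and the small intestine list after these arrays were seen. Named were all members, up to 4 genes per list of smallest unadjusted p, and the 5 features most like each class. Gclc, Gclm, Nqo1 and the genes of the relations of smallest p were named after their values were seen. Alternatives covered background correction, normalization, the filter, the offset, the probe rule, eBayes options, array weights, the column code, the replicate number and the arrays kept.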

Additional observations from a re-analysis of the deposited data

Results flagged for a closer look

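In 3 of 24 groups examined, an array stood apart from the next by more than Dixon's 95% critical value for 7 values. Each of the 3 was a sucrose group, in which the highest array stood apart. Chance alone gives such a gap in about 1 in 20 groups. All 3 concern SUC_421_03, the array with small intestine transcripts, in quantities that are not separate, since Gsta1 and Gsta2 correlated at 0.96 and both enter the class level. The spread within a diet was among the measures the members were chosen on, so the gaps are a description and no comparison with that chance rate is drawn. Its Gsta1 was 9.99 on the log2 scale with the nearest array at 7.20, a gap of 0.604 of the range. Gsta2 was 8.70 against 7.35, a gap of 0.581. Its alpha minus mu class level was 1.56 against 0.23, a gap of 0.736. The part of the intestine transcripts in these values was not tested.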

How the results depend on the processing

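No transferase was called under any of 28 alternatives. The number of features called was 0 in all of them except without a filter on dim probes, where 1 of 18312 was called (Atg2a, adjusted p of 0.0314). Gsta1 was not among the features under the strict filter (detection p under 0.01 on all arrays). The diet difference changed sign, with the cause not tested, for Gsta1 (0.068 without SUC_421_03, and 0.91 without the 5 arrays with other-tissue markers), for Gsta2 (0.62) and Gsta4 (0.36) without those 5 arrays, and for Gstm1 (-0.060) and Gstm2 (-0.088) without both PAL_430 arrays. Leaving out 1 array at a time gave -0.841 to 0.0678 for Gsta1, -0.169 to 0.0603 for Gsta4, -0.0370 to 0.143 for Gstm2 and -0.00105 to 0.173 for Gstm4. Gsta3, Gstp1 and Gstt1 kept their sign in all 28. The median r of the 36 pairs was 0.167 without the 5 arrays and 0.639 without the 3 arrays highest in Gsta1, and 0.347 to 0.479 with 1 array left out. Alpha minus mu ran from -0.61 to 0.14. Settings on left-out sets of arrays were chosen after seeing the data. The labels do not say whether replicate numbers pair the mice. Same-numbered mice correlated at r from -0.23 to 0.16, over 0.1 in 3 of 7 pairs, and 1 of 7 mice was best with its own number. Such values cannot settle whether the numbers carry a pairing. The replicate block on the authors' normalized values gave 0 calls, with a Gsta1 difference of -0.40 and a Gstm1 difference of 0.19. With the column code as a random block, 0 were called. Arrays of the same code resembled each other, with a consensus correlation of 0.362, but only 2 codes held several arrays, 430 among them. With 7 arrays a diet, intervals as wide as 1.49 on each side (Gsta1) leave changes of that size undetectable.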
